A study of Homo sapiens with 15 samples.

Results

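The protein-coding genes of chromosome 19 whose symbols begin with ZNF were examined in 15 cholangiocarcinoma (CCA) xenograft tumors. They were found by matching the gene identifiers of the count table to the GENCODE 29 annotation of GRCh38 and keeping every protein-coding ZNF gene on that chromosome, which gave 249 members of 58735 genes in the table. The rule itself uses no expression value, but it was chosen with earlier results of these data known. Along the chromosome, 235 of the members lay in 10 clusters of at least 5 members, a new cluster being started at each gap of over 500 kb between neighbouring members, and 14 lay outside them. The clusters are numbered 1 to 10 from the short-arm end.

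The tumors were cell line-derived xenografts (CDX), grown in mice from 3 human CCA cell lines, with 5 tumors per line. HuCC-A1 and HuCC-T1 are intrahepatic CCA lines and EGI-1 is an extrahepatic CCA line. All tumors came from mice given the vehicle PBS alone, intraperitoneally once per week, for 6 weeks in the HuCC-A1 model and for 4 weeks in the EGI-1 model, and the labels give no duration for HuCC-T1. The host mice were of an immunodeficient strain, no group was treated with an active agent, and each model is 1 cell line, so that a difference between models is a difference between single lines and can be told apart neither from the different growth times nor from anything else that was particular to a set of mice.

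Most ZNF genes of chromosome 19 encode DNA-binding proteins in which a string of C2H2 zinc fingers follows a KRAB domain. The KRAB domain recruits the corepressor TRIM28, which brings in the histone methyltransferase SETDB1 and heterochromatin proteins, and many of these proteins bind and repress transposable elements. The genes arose by repeated local duplication and stand in long tandem clusters, and the promoters of some of them are known to be methylated in carcinomas.

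Levels are given in CPM, the counts of a gene scaled to the total of its library and corrected by the trimmed mean of M values (TMM), and levels of different genes are compared only per kb of exon. A member was called silent in a model when its mean over the 5 tumors was under 0.1 CPM, which stood for 15 counts over the 5 HuCC-A1 libraries, 15 over the HuCC-T1 libraries and 18 over the EGI-1 libraries, and expressed when it was at least 1 CPM. Total counts per library were 20001412 to 33585265 in HuCC-A1, 26163778 to 33984103 in HuCC-T1 and 34239460 to 44067878 in EGI-1, so that every EGI-1 library was deeper than every library of the other models. Epithelial and biliary marker genes were present in all tumors, with summed levels of 6021 to 8294 CPM in HuCC-A1, 6803 to 18464 CPM in HuCC-T1 and 15299 to 26560 CPM in EGI-1. Among the markers of other cells, the 10 fibroblast genes summed to 424 to 949 CPM in HuCC-A1, 102 to 519 CPM in HuCC-T1 and 74.9 to 128 CPM in EGI-1, the 7 endothelial genes to 16.0 to 31.6, 13.5 to 25.3 and 3.48 to 4.48 CPM in the same order, and the 9 leukocyte genes to 9.18 to 22.7, 11.7 to 45.7 and 28.8 to 40.7 CPM with C1QA, C1QB and MS4A1 at 0 in all 3 models. The fibroblast sums came mostly from 1 collagen gene per model. COL3A1 averaged 638, 8.57 and 9.28 CPM in HuCC-A1, HuCC-T1 and EGI-1, and COL1A1 averaged 17.5, 375 and 84.5 CPM. PDGFRB, PDGFRA and THY1 averaged under 1 CPM in every model, so that these sums do not measure fibroblast content. How reads from the mouse host were handled is not stated. The marker sums moved with the models, and their part in the results below was not tested. In bulk tumors, fewer cells of a type cannot be told apart from less RNA per cell.

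Members differed widely in level. The highest levels per kb of exon, averaged over the models, were those of ZNF146 with 20.6 CPM per kb, ZNF524 with 13.6, ZNF581 with 12.7, ZNF266 with 12.4 and ZNF428 with 11.6. ZNF146, which encodes a protein made almost only of zinc fingers with no KRAB domain, had 92.5, 90.7, 90.5, 84.4 and 91.3 CPM in the HuCC-A1 tumors, 65.4, 127, 95.8, 95.2 and 96.9 CPM in the HuCC-T1 tumors and 55.5, 74.0, 77.0, 74.98 and 72.3 CPM in the EGI-1 tumors. The HuCC-A1 values lay above all EGI-1 values without passing the test described below (adjusted p = 0.0562, edgeR quasi-likelihood test), and the HuCC-T1 tumors overlapped with both other models but were higher than EGI-1 in the test, by 0.44 on the log2 scale (adjusted p = 0.0183). The call of ZNF146 in HuCC-T1 against EGI-1 was lost without EGI-1 replicate 1 and without HuCC-T1 replicate 2 (adjusted p = 0.0570 and 0.0652, edgeR quasi-likelihood test). ZNF428 averaged 12.9 ± 3.85 CPM in HuCC-A1, 14.3 ± 8.15 CPM in HuCC-T1 and 35.5 ± 11.2 CPM in EGI-1 (SD, n = 5 each).

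Summed over all 249 members, the level was 2009 to 2690 CPM in the HuCC-A1 tumors, 1963 to 2712 CPM in the HuCC-T1 tumors and 3004 to 3538 CPM in the EGI-1 tumors. Every EGI-1 tumor was above every tumor of the other models, while HuCC-A1 and HuCC-T1 overlapped. In all, 154 members were expressed in all 3 models and 18 were silent in all 3. The number expressed was 167 in HuCC-A1, 171 in HuCC-T1 and 203 in EGI-1, and the number silent was 36, 48 and 29 in the same order, of which 12, 17 and 14 had no count in any tumor of the model.

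**Figure D1:**
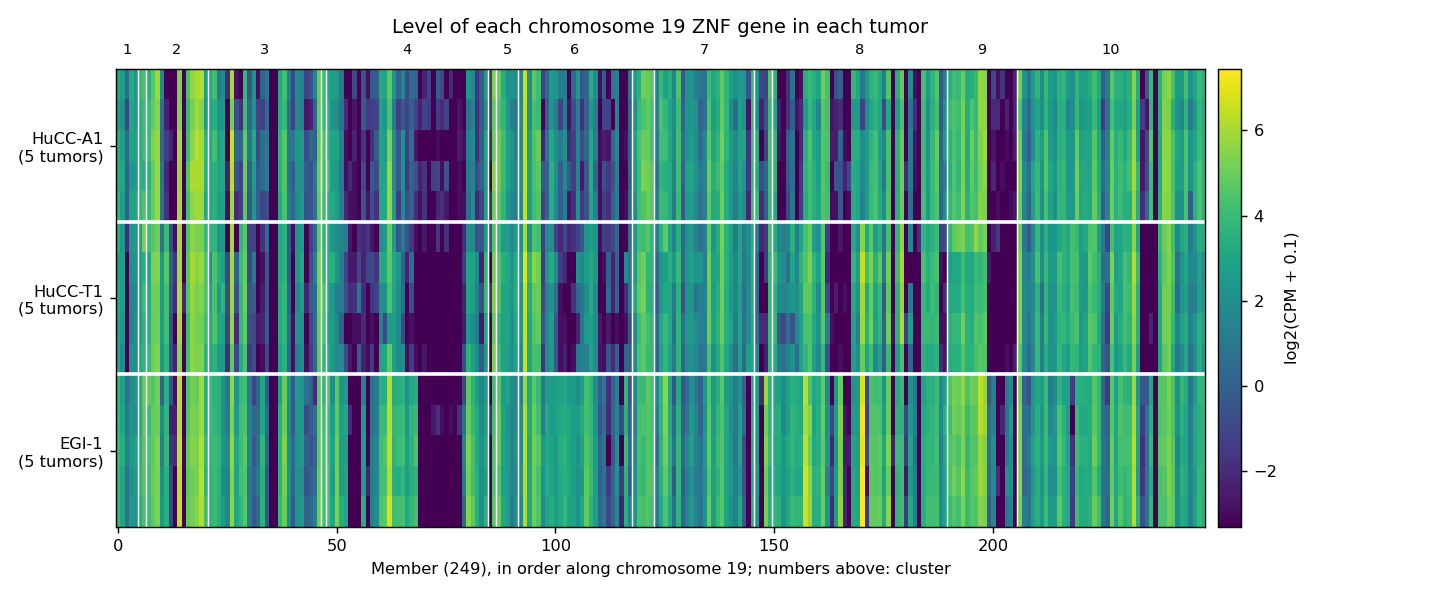
Level of each of the 249 members (columns, in order along chromosome 19, with the clusters numbered above) in each of the 15 tumors (rows, 5 per model), as log2(CPM + 0.1) on the colour scale. Dark columns in the HuCC-A1 and HuCC-T1 rows stand next to lighter ones in the EGI-1 rows in clusters 4, 6, 8 and 9, and the dark block inside cluster 4 runs through the HuCC-T1 and EGI-1 rows.

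Each gene was tested in 1 model over the 15 tumors by edgeR's quasi-likelihood test with Benjamini-Hochberg adjustment over the 21019 genes that passed a filter on low counts, at an adjusted p of 0.05. Of the 249 members, 217 passed the filter and 32 did not. A member that is low in 2 models can pass it only through the third, so the counts below describe the tested members and not all of them.

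In HuCC-A1 against EGI-1, 29 of the 217 tested members (13.4%) were higher and 96 (44.2%) were lower, against 29.4% higher and 26.0% lower among all genes tested. The median log2 fold change of the members was -0.38, and that of all genes was 0.06. In HuCC-T1 against EGI-1, which used the same EGI-1 tumors, 22 members (10.1%) were higher and 107 (49.3%) lower, against 27.3% and 25.0% of all genes, with a median of -0.55 for the members and 0.06 for all genes. In HuCC-A1 against HuCC-T1, 67 members (30.9%) were higher and 41 (18.9%) lower, against 29.1% and 27.2% of all genes, with medians of 0.17 and 0.05. When libraries were scaled by their totals alone, 40 members were higher and 76 lower in HuCC-A1 against EGI-1, and the median of all genes moved to 0.22. The share of higher calls among the called members was then 34.5%, against 23.2% with TMM scaling.

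The 266 protein-coding ZNF genes of other chromosomes did not share this lean toward lower calls in the comparisons with EGI-1. Of the 239 tested, 89 were higher (37.2%, against 29.4% of all genes) and 39 lower (16.3%, against 26.0%) in HuCC-A1 against EGI-1, with a median of 0.20. In HuCC-T1 against EGI-1, 83 were higher (34.7%, against 27.3%) and 52 lower (21.8%, against 25.0%). The median there was 0.08, close to the 0.06 of all genes. The other protein-coding genes of chromosome 19 leaned the way of the members: of 877 tested, 135 were higher and 281 (32.0%) lower in HuCC-A1, and 71 were higher and 529 (60.3%) lower in HuCC-T1, with medians of -0.23 and -0.77. In HuCC-T1 the share of lower calls was thus larger among the other genes of the chromosome than among the members. In HuCC-A1 against HuCC-T1, 430 of these other genes were higher (49.0%, against 29.1% of all genes) and 83 lower (9.46%, against 27.2%), with a median of 0.57. DNA copy number was not analysed here, and its part in these differences was not tested.

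**Figure D2:**
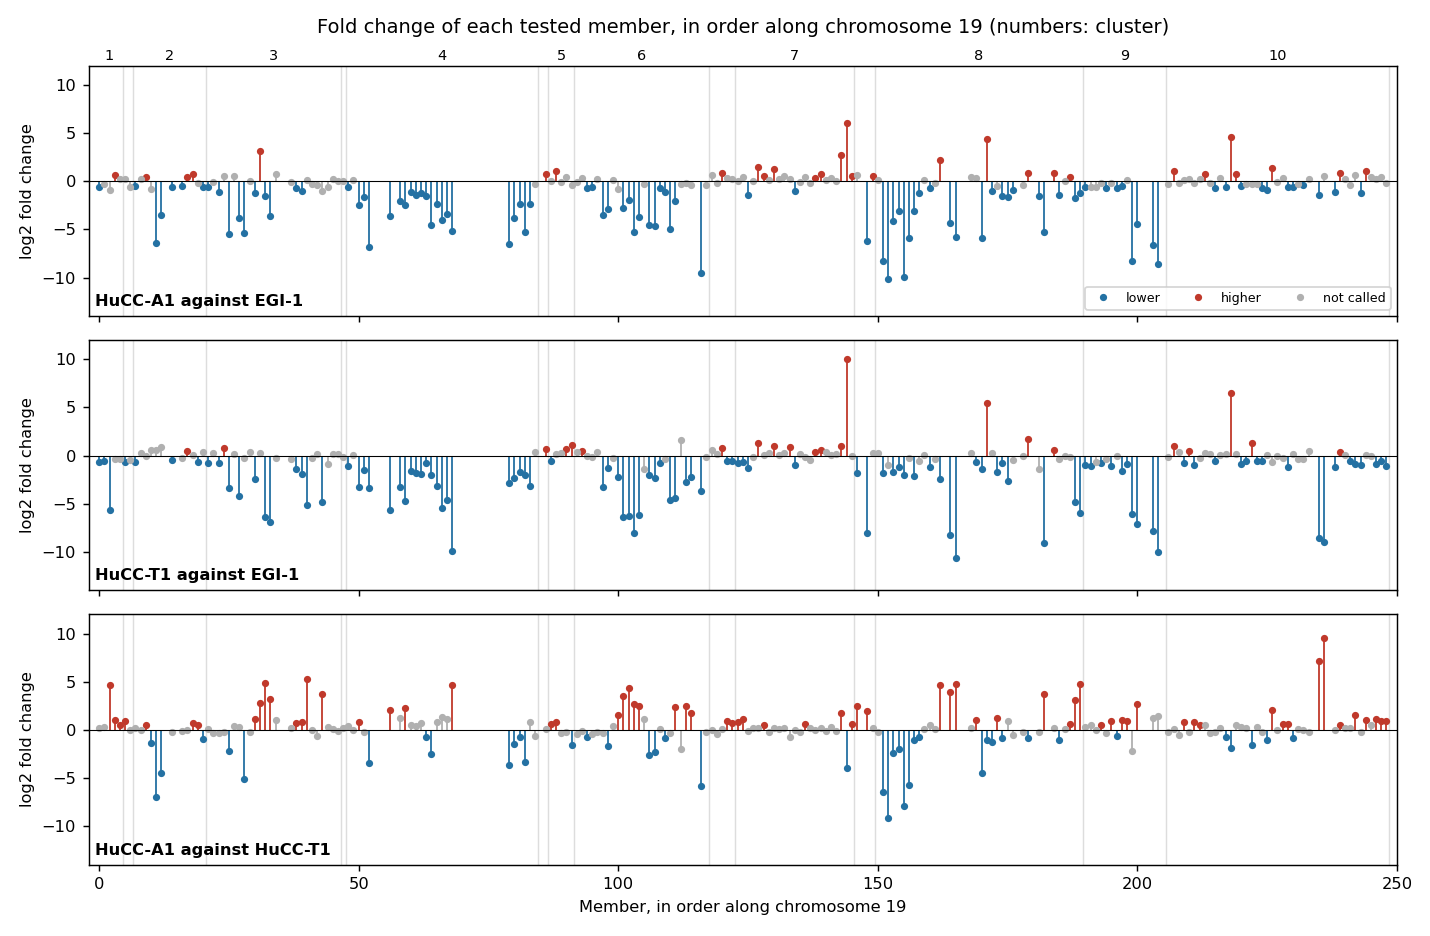
Log2 fold change of each tested member (vertical axis) against its rank along chromosome 19 (horizontal axis, clusters numbered above) in HuCC-A1 against EGI-1 (top), HuCC-T1 against EGI-1 (middle) and HuCC-A1 against HuCC-T1 (bottom), with called members in blue (lower) and red (higher). Blue stems fill cluster 4 in the top and middle panels, where 21 of its 23 tested members were called lower, and both directions are mixed in the bottom panel.

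No cluster was silent as a whole in any model. Among the members expressed in at least 1 other model, 11 of 208 (5.29%) were silent in HuCC-A1, against 2.64% of all genes treated in the same way. In HuCC-T1 16 of 209 (7.66%) were silent, against 3.09% of all genes, and in EGI-1 only ZNF229 was silent, 1 of 181 (0.552%), against 4.69%. In HuCC-A1 these were ZNF491, ZNF93, ZNF724, ZNF607, ZNF577, ZNF649, ZNF615, ZNF665, ZNF582, ZNF470 and ZNF71. In HuCC-T1 they were ZNF556, ZNF878, ZNF844, ZNF43, ZNF829, ZNF568, ZNF570, ZNF880, ZNF528, ZNF665, ZNF582, ZNF583, ZNF470, ZNF71, ZNF256 and ZNF606. ZNF665, ZNF582, ZNF470 and ZNF71 were silent in both and expressed in EGI-1. The members nearest to the limit of 0.1 CPM were ZNF578 inside it and ZNF418 outside it in HuCC-A1, with means of 0.0899 and 0.114 CPM, ZNF177, which shares 90.8% of its exon bases with a read-through gene, and ZNF790 in HuCC-T1 with 0.0965 and 0.109 CPM, and ZNF534 and ZNF781 in EGI-1 with 0.0697 and 0.152 CPM.

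Members called lower in a model against both others numbered 34 of 217 in HuCC-A1 (15.7%, against 14.9% of all genes), 51 in HuCC-T1 (23.5%, against 13.5%) and 15 in EGI-1 (6.91%, against 14.4%). The 2 comparisons behind each count share the tumors of that model. The HuCC-A1 share was close to that of all genes.

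Promoter sequences from RefSeq (GRCh38.p14, from 250 bases before the start of a gene to 50 after it) matched 217 of the 249 members. CG dinucleotides per 300-base window had a median of 20 among these members and of 14 among all 27324 promoters of the same length. The 21 matched members that were silent in HuCC-A1 or HuCC-T1 and expressed in EGI-1 had a median of 21, the 140 expressed in all models 22 and the 15 silent in all models 16. The windows were searched on both strands for short forms of common promoter motifs. CCGGAAG, a form of the ETS site, stood in 45.6% of the members' windows and in 10.7% of all, GGGCGG, a form of the SP and KLF site, in 68.2% and 44.6%, AAGATGGC, a form of the YY1 site, in 6.45% and 3.03%, CATGCGC, a core of the NRF1 site, in 5.07% and 4.67%, and TATAAA in 1.84% and 11.9%. Of the 21 windows of the silent members, 47.6% held CCGGAAG, and of the 140 windows of the members expressed in all models, 45.7% did. These matches describe letters in the window and not bound sites, and DNA methylation was not measured.

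The 250 bases before the start are shown 5′ to 3′ on the strand of the gene for 7 named members with wide contrasts between the models and for ZNF229, chosen after their values were seen, with every CG, the dinucleotide that can carry methylation, in capitals. ZNF577 (chr19:51887952-51888201, minus strand), ZNF615 (chr19:52008212-52008461, minus) and ZNF614 (chr19:52028380-52028629, minus) were lowest in HuCC-A1 and hold 17 CG each. ZNF528 (chr19:52397599-52397848, plus) with 23 CG and ZNF606 (chr19:58002821-58003070, minus) with 27 were lowest in HuCC-T1. ZNF582 (chr19:56393535-56393784, minus) with 23 and ZNF71 (chr19:56595052-56595301, plus) with 25 had almost no count in either of those models, and ZNF229 (chr19:44448473-44448722, minus) with 21 had none in EGI-1.
ZNF577: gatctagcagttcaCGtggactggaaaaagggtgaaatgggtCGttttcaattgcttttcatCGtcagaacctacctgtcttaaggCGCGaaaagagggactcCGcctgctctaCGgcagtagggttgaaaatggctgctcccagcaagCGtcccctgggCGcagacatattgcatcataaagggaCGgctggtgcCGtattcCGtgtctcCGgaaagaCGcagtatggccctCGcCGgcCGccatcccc
ZNF615: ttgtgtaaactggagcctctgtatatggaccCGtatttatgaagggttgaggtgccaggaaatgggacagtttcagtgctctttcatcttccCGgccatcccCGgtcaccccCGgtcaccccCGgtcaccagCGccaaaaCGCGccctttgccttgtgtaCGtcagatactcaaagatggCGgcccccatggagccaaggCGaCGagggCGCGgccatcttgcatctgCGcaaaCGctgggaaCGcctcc
ZNF614: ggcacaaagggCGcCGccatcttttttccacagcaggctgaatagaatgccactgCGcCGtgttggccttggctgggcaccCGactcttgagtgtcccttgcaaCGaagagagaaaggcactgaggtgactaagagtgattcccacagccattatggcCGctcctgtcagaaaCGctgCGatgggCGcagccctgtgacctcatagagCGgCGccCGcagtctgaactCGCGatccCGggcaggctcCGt
ZNF528: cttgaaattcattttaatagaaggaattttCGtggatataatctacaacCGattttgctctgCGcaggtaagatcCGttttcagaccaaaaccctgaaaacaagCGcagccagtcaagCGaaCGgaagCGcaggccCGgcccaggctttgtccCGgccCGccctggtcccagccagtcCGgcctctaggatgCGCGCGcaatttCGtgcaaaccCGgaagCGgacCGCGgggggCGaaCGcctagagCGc
ZNF606: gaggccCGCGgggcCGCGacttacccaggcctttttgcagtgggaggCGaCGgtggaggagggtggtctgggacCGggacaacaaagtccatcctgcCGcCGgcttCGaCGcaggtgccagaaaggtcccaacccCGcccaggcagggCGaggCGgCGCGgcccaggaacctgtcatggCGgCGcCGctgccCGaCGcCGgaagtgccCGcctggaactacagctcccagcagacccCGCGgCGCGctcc
ZNF582: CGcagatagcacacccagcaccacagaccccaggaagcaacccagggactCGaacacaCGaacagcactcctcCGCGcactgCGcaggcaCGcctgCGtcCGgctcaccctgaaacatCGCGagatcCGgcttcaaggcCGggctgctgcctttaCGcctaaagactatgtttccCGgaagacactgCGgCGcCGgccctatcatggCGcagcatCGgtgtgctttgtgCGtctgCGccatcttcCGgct
ZNF71: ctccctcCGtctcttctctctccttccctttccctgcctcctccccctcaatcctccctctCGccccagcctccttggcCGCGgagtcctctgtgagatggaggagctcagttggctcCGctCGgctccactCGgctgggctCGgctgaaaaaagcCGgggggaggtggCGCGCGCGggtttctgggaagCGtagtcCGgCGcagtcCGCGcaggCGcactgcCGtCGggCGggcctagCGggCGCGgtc
ZNF229: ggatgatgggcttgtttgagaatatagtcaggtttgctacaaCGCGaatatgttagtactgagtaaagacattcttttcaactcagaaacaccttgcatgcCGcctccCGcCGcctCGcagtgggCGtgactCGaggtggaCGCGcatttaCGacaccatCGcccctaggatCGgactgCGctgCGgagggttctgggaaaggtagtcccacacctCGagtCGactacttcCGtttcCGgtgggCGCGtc

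Cluster 4, on the short arm next to the centromere (chr19:19668796-24129961), had the highest share of members called lower against EGI-1 among the 10 clusters, in either comparison. Of its 37 members, 23 were tested, and 21 of these (91.3%, against 26.0% of all genes) were lower in HuCC-A1 against EGI-1, with none higher and a median log2 fold change of -2.40. In HuCC-T1 against EGI-1, 21 were again lower (91.3%, against 25.0%) and none higher, with a median of -2.33. In HuCC-A1 against HuCC-T1, 4 were higher (17.4%, against 29.1%) and 7 lower (30.4%, against 27.2%). This split turned to 8 higher and 5 lower when libraries were scaled by their totals. The summed level of the cluster was 102, 71.9, 112, 130 and 126 CPM in the HuCC-A1 tumors, 89.9, 125, 98.5, 57.0 and 115 CPM in the HuCC-T1 tumors and 283, 333, 386, 345 and 459 CPM in the EGI-1 tumors. All EGI-1 tumors lay above all others, and HuCC-A1 and HuCC-T1 overlapped.

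Among the tested members of cluster 4, the calls ran without a break. All 20 tested members from ZNF506 to ZNF726 (chr19:19785839-23945159) were lower in HuCC-A1, with a median log2 fold change of -2.44 and the smallest change at -1.07. The same 20 were lower in HuCC-T1, with a median of -2.99 and the smallest change at -0.82. Untested members lie between them, and a member that passes the filter only through EGI-1 can only come out lower. Of the untested, the 3 neighbours from ZNF682 to ZNF486 held 24 counts in HuCC-A1, 119 in HuCC-T1 and 5 in EGI-1. The untested block from ZNF208 to ZNF730 is described below. Both comparisons use the same EGI-1 tumors. The way of describing calls by such runs was chosen after the values were seen. No other protein-coding gene wholly inside this stretch passed the filter.

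ZNF91, which represses SVA retroelements, had 5.17, 1.65, 2.59, 2.16 and 1.38 CPM in the HuCC-A1 tumors, 3.29, 7.26, 8.19, 5.23 and 12.2 CPM in the HuCC-T1 tumors and 27.6, 32.4, 39.5, 36.4 and 45.6 CPM in the EGI-1 tumors. The lowest EGI-1 tumor was above every tumor of the other models, and the edgeR quasi-likelihood test gave log2 fold changes of -3.81 ± 0.38 for HuCC-A1 (SE, adjusted p = 1.99e-07) and -2.33 ± 0.35 for HuCC-T1 (adjusted p = 2.9e-05). ZNF93, which represses young LINE elements, had 0 to 0.150 CPM with a median of 0.0322 in HuCC-A1, 0 to 2.24 CPM with a median of 0.486 in HuCC-T1, and 5.34 to 8.65 CPM with a median of 7.69 in EGI-1. It was close to absent in all HuCC-A1 tumors, and in HuCC-T1 a single tumor, replicate 1, carried most of the counts: without it the log2 fold change against EGI-1 was -4.41 in place of -3.35.

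ZNF43 had 1.13, 0.350, 0.0533, 0.547 and 0.153 CPM in the HuCC-A1 tumors, 0.0320, 0, 0, 0 and 0.0311 CPM in the HuCC-T1 tumors and 10.7, 15.8, 21.8, 12.9 and 19.4 CPM in the EGI-1 tumors. The 3 models did not overlap. The 2 counts in HuCC-T1 gave a ratio of EGI-1 to HuCC-T1 of 1217, with an exact 95% interval of 337 to 10049. Such intervals cover counting error only. ZNF506, at the start of the run, averaged 5.96 ± 1.40 CPM in HuCC-A1, 3.30 ± 1.0 CPM in HuCC-T1 and 32.2 ± 5.89 CPM in EGI-1 (SD, n = 5 each) and was lower by 2.43 and 3.29 on the log2 scale (adjusted p = 1.36e-07 and 9.32e-09, edgeR quasi-likelihood test). ZNF675 averaged 3.36 ± 0.580, 5.44 ± 1.80 and 17.7 ± 5.17 CPM in the same order. ZNF431, inside the run, averaged 38.6 CPM in HuCC-A1, 22.8 CPM in HuCC-T1 and 87.5 CPM in EGI-1 and was thus lower in both intrahepatic models without being silent. Outside the run, ZNF254, the last member of the cluster, averaged 6.57, 10.1 and 8.02 CPM, and ZNF14, near the first, 6.93, 6.82 and 6.41 CPM, and neither was called against EGI-1. ZNF506, ZNF675, ZNF431, ZNF254 and ZNF14 were chosen after their values were seen, to show the run and its ends.

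Inside cluster 4, the 10 neighbours from ZNF208 to ZNF730 (chr19:21932958-23147219) were silent in HuCC-T1 and in EGI-1, with 17 and 16 counts in all over 5 tumors each, and none of them was tested. In HuCC-A1 they held 164 counts, and 5 of the 10 (ZNF257, ZNF676, ZNF98, ZNF492 and ZNF99) were at or above 0.1 CPM, the highest being ZNF98 with 0.885, 0.3, 0.0267, 0.386 and 0.123 CPM in the 5 tumors. The HuCC-T1 tumors had 0.224, 0, 0, 0 and 0 CPM of ZNF98 and the EGI-1 tumors 0, 0.181, 0, 0 and 0 CPM, so that the 3 models overlapped. Of the 100-base stretches of ZNF98, 23.7% occur elsewhere among the annotated exons, so that its counts are uncertain. For ZNF724, beyond this block, 44.8% of exon bases are shared with another gene. The block and its members were chosen after their values were seen.

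**Figure D3:**
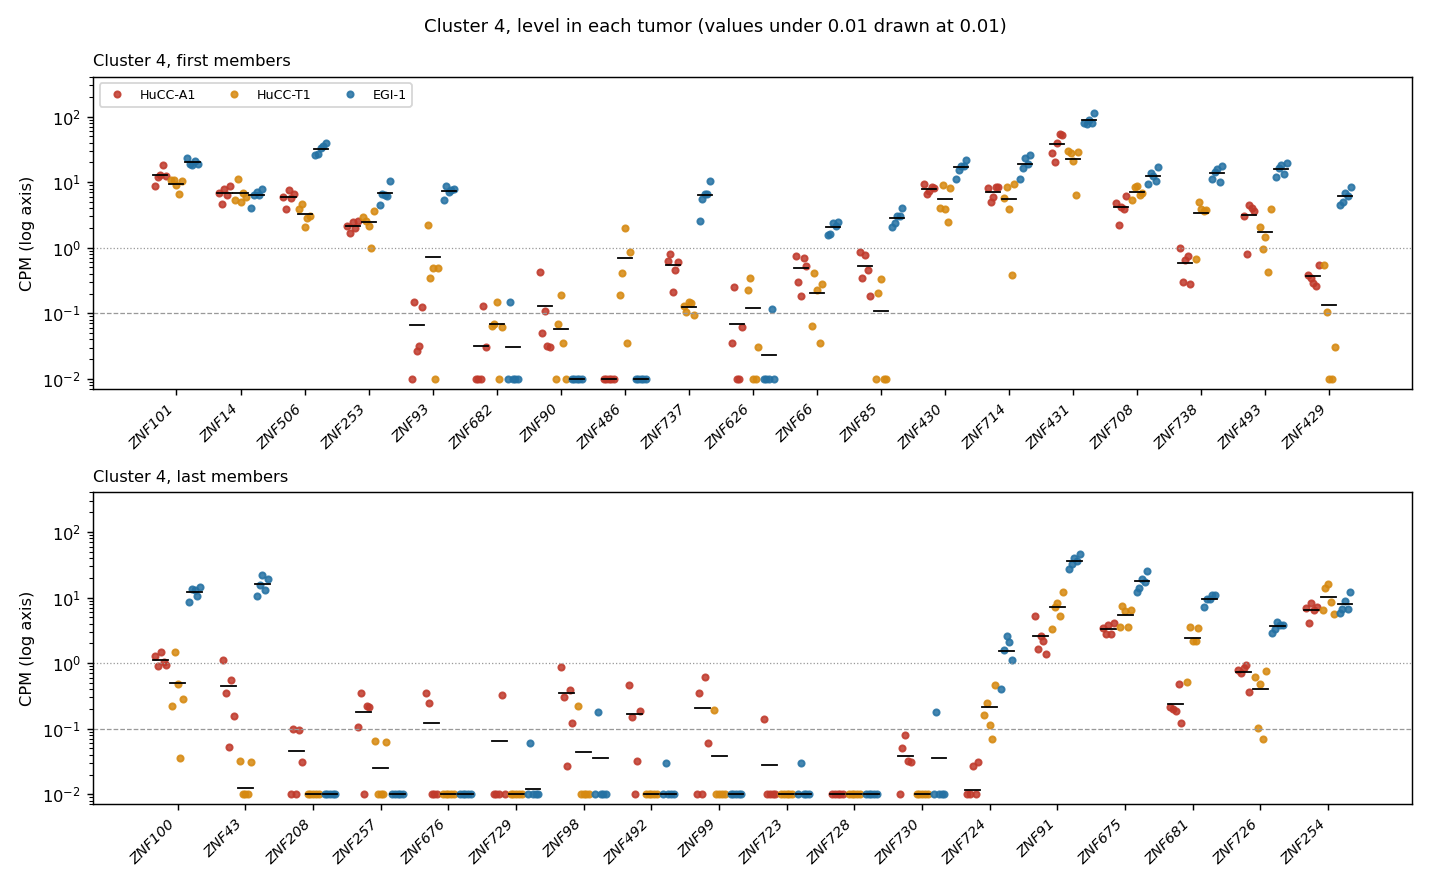
Level in CPM (log axis, values under 0.01 drawn at 0.01) of the 37 members of cluster 4 in order along the chromosome, with 1 point per tumor, a bar at the mean of 5 tumors, and dashed and dotted lines at 0.1 and 1 CPM. From ZNF506 on, the EGI-1 points stand above the HuCC-A1 and HuCC-T1 points in most columns, as for ZNF91 with 27.6 to 45.6 CPM, and between ZNF208 and ZNF730 nearly all points lie under 1 CPM.

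Cluster 8 (chr19:51571298-53580269) held a stretch that set HuCC-A1 apart from both other models. Of its 40 members, 34 were tested. In HuCC-A1 against EGI-1, 5 were higher (14.7%, against 29.4% of all genes) and 21 lower (61.8%, against 26.0%). In HuCC-T1 against EGI-1, 3 were higher (8.82%, against 27.3%) and 17 lower (50%, against 25.0%). In HuCC-A1 against HuCC-T1, 9 were higher (26.5%, against 29.1%) and 14 lower (41.2%, against 27.2%). The shares against EGI-1 depend on the filter, since a member that passes it only through EGI-1 can only come out lower. The 8 neighbours from ZNF577 to ZNF841 (chr19:51804816-52095765, 291 kb) were all lower in HuCC-A1 than in EGI-1, with a median log2 fold change of -4.99 and the smallest change at -1.22, and all lower in HuCC-A1 than in HuCC-T1, with a median of -4.03 and the smallest change at -0.71. The fitted value of ZNF649, which had no count in HuCC-A1, is no bound, and both medians are the same with ZNF649 at its bound given below. The 2 comparisons share the HuCC-A1 tumors. No other protein-coding gene lies wholly inside this stretch, and genes that cross its edges were not counted.

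ZNF649, which is known to bind LINE elements, had no count in any of the 5 HuCC-A1 tumors, against 2.43, 3.60, 2.95, 0.388 and 1.53 CPM in the HuCC-T1 tumors and 4.03, 3.12, 5.21, 4.80 and 4.63 CPM in the EGI-1 tumors. Set against 3 counts as the limit for all 5 HuCC-A1 tumors together, its level there was at least 220-fold lower than in EGI-1 and at least 108-fold lower than in HuCC-T1 (adjusted p = 4.52e-07 and 1.6e-06, edgeR quasi-likelihood test). The HuCC-T1 and EGI-1 tumors overlapped, and their difference did not pass the test (adjusted p = 0.0762). An antisense gene shares 9.76% of the exon bases of ZNF649.

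ZNF615 had 0, 0.05, 0, 0 and 0 CPM in the HuCC-A1 tumors, 2.14, 2.73, 3.85, 3.21 and 1.31 CPM in the HuCC-T1 tumors and 10.01, 11.1, 9.86, 8.71 and 13.0 CPM in the EGI-1 tumors. A single count was thus found in HuCC-A1, and the 3 models did not overlap. The ratio of EGI-1 to HuCC-A1 was 1578 (exact 95% interval 283 to 62327), that of HuCC-T1 to HuCC-A1 was 387 (69.5 to 15299), and HuCC-T1 was lower than EGI-1 by 1.99 on the log2 scale (SE 0.31, adjusted p = 4.69e-05, edgeR quasi-likelihood test). ZNF577, a gene whose promoter is known to be methylated in carcinomas, had 0, 0.1, 0.0533, 0 and 0 CPM in HuCC-A1, 2.85, 4.77, 3.33, 0.706 and 1.96 CPM in HuCC-T1 and 7.41, 10.8, 9.84, 9.26 and 12.1 CPM in EGI-1, again with no overlap.

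ZNF614, next to ZNF615, differed between the models in another way. It had 0.0354, 0.150, 0.133, 0.225 and 0.276 CPM in the HuCC-A1 tumors, 7.87, 13.1, 8.57, 6.99 and 7.35 CPM in the HuCC-T1 tumors and 8.21, 9.04, 11.4, 9.26 and 13.1 CPM in the EGI-1 tumors. All HuCC-A1 tumors were far below the others, with log2 fold changes of -5.91 ± 0.36 against EGI-1 and -5.69 ± 0.36 against HuCC-T1 (SE, adjusted p = 6.06e-10 and 1.13e-09, edgeR quasi-likelihood test), whereas HuCC-T1 and EGI-1 overlapped (adjusted p = 0.522). ZNF350, which encodes a corepressor that binds BRCA1, averaged 1.49 ± 0.435 CPM in HuCC-A1, 5.80 ± 4.01 CPM in HuCC-T1 and 13.1 ± 1.61 CPM in EGI-1, and ZNF432, at the far end of the run, averaged 10.1 ± 2.52, 20.7 ± 5.36 and 87.5 ± 16.9 CPM (SD, n = 5 each). Beyond ZNF841 the run ended, and ZNF616 was called in none of the 3 comparisons. ZNF350, ZNF432, ZNF841 and ZNF616 were chosen after their values were seen.

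Further along cluster 8, the silent model was another one. ZNF528 had 0.885, 0.150, 1.09, 0.547 and 0.614 CPM in the HuCC-A1 tumors, 0.0640, 0, 0, 0 and 0.0311 CPM in the HuCC-T1 tumors and 29.3, 40.0, 37.9, 37.2 and 47.9 CPM in the EGI-1 tumors. The models did not overlap: the 3 counts in HuCC-T1 gave a ratio of EGI-1 to HuCC-T1 of 1904 (exact 95% interval 651 to 9231), and HuCC-A1 was lower than EGI-1 by 5.82 on the log2 scale (SE 0.37, adjusted p = 1.02e-09, edgeR quasi-likelihood test). Its neighbour ZNF880 averaged 0.264 ± 0.267 CPM in HuCC-A1, 0.0150 ± 0.0335 CPM in HuCC-T1 and 5.52 ± 0.480 CPM in EGI-1. The 5 neighbours from ZNF610 to ZNF578 were all silent in HuCC-T1, but only ZNF528 and ZNF880 among them were tested. ZNF534 and ZNF578 were silent in all 3 models, ZNF610 had 5 counts in HuCC-A1, 1 in HuCC-T1 and 38 in EGI-1, and 7079 of the 8141 counts of the stretch in EGI-1 were those of ZNF528.

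Not all members of cluster 8 were low in HuCC-A1. ZNF480 averaged 19.1 ± 1.60 CPM in HuCC-A1, 0.752 ± 0.898 CPM in HuCC-T1 and 4.16 ± 1.08 CPM in EGI-1 and so was highest in HuCC-A1 (log2 fold change 2.20 against EGI-1, adjusted p = 0.000568, edgeR quasi-likelihood test). Among the HuCC-T1 tumors, replicate 4 had 2.33 CPM and the other tumors 0.138 to 0.592 CPM, and without it the log2 fold change of HuCC-T1 against EGI-1 was -3.52 in place of -2.47. ZNF611, known to bind SVA elements, went against most of the cluster. It had 5.70, 3.75, 5.76, 5.47 and 6.50 CPM in the HuCC-A1 tumors, 9.30, 18.9, 8.90, 11.7 and 8.28 CPM in the HuCC-T1 tumors and 0.397, 0.272, 0.369, 0.0291 and 0.230 CPM in the EGI-1 tumors, with log2 fold changes of 4.36 ± 0.41 for HuCC-A1 and 5.43 ± 0.42 for HuCC-T1 against EGI-1 (SE, adjusted p = 1.05e-07 and 1.74e-08, edgeR quasi-likelihood test).

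ZNF665 was the member of cluster 8 that was silent in both intrahepatic models and expressed in EGI-1. It had 0.0354, 0.150, 0.0533, 0.0322 and 0 CPM in the HuCC-A1 tumors and no count in the HuCC-T1 tumors, against 1.89, 2.30, 1.5, 2.33 and 2.38 CPM in the EGI-1 tumors, and was at least 101-fold lower in HuCC-T1 than in EGI-1. ZNF331, at the end of the cluster and known to be methylated in gastrointestinal carcinomas, had 2.58, 4.00, 5.78, 2.22 and 3.87 CPM in HuCC-A1, 0.384, 0, 0.150, 0.0353 and 0.0623 CPM in HuCC-T1 and 6.83, 11.5, 9.19, 7.37 and 7.37 CPM in EGI-1. The 3 models did not overlap. HuCC-T1 was lower than EGI-1 by 6.00 on the log2 scale (adjusted p = 1.6e-07, edgeR quasi-likelihood test), or by 7.0 without HuCC-T1 replicate 1, which held the highest of the HuCC-T1 values.

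Of 15 other protein-coding genes between the ZNF genes of cluster 8, 7 were tested. Against EGI-1, 6 of the 7 were lower in HuCC-A1 and 7 in HuCC-T1, where 26.0% and 25.0% of all genes were lower. HAS1, FPR2 and ERVV-2 averaged 0.0215, 0.133 and 0.113 CPM in HuCC-A1 and 0.218, 0.0401 and 0.0522 CPM in HuCC-T1. A gene that passes the filter only through EGI-1 can only come out lower. The 7 tested genes also included the formyl peptide receptor genes FPR1 and FPR3, which averaged 0.0235 and 0.0606 CPM in HuCC-A1, 0.742 and 1.18 CPM in HuCC-T1 and 17.2 and 39.2 CPM in EGI-1, and the phosphatase subunit gene PPP2R1A with 223 ± 18.1, 194 ± 56.6 and 462 ± 68.5 CPM (SD, n = 5 each).

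In cluster 6 (chr19:36182060-37817300, 26 members, 25 tested), none was higher and 15 were lower (60%, against 26.0% of all genes) in HuCC-A1 against EGI-1. In HuCC-T1 against EGI-1, 1 was higher (4%, against 27.3%) and 15 were lower (60%, against 25.0%). The median log2 fold changes were -0.75 and -1.99. These shares and medians depend on the filter, since a member that passes it only through EGI-1 can only come out lower. The 5 neighbours from ZNF850 to ZNF568 (chr19:36714383-36998700, 284 kb) were all lower in HuCC-T1 than in EGI-1, with a median log2 fold change of -6.31, and all were higher in HuCC-A1 than in HuCC-T1. ZNF345 had 2.55, 2.20, 4.56, 3.32 and 2.39 CPM in the HuCC-A1 tumors, 0.416, 0.138, 0, 0.0353 and 0.0934 CPM in the HuCC-T1 tumors and 8.88, 10.4, 12.7, 11.3 and 14.0 CPM in the EGI-1 tumors. The models did not overlap, and HuCC-T1 was lower than EGI-1 by 6.31 on the log2 scale, or by 7.28 without its replicate 1.

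ZNF568, whose mouse counterpart silences a placental transcript of Igf2, averaged 0.480 ± 0.383 CPM in HuCC-A1, 0.0820 ± 0.0989 CPM in HuCC-T1 and 6.34 ± 0.8 CPM in EGI-1 (SD, n = 5 each). For ZNF829, between them, only 4 counts were found in HuCC-T1 and 30 in HuCC-A1, against 1448 in EGI-1. Its call between HuCC-A1 and HuCC-T1 (log2 fold change 2.70, adjusted p = 0.0317, edgeR quasi-likelihood test) was lost without HuCC-A1 replicate 4, which had 0.676 CPM (1.28, adjusted p = 0.274), and also without HuCC-T1 replicate 2, 3, 4 or 5 (2.38 to 2.43, adjusted p of 0.0669 to 0.0690). Without HuCC-T1 replicate 1, which held all 4 counts, the value was 5.65.

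Further along cluster 6, the 6 neighbours from ZNF585A to ZNF570 (chr19:37106734-37488652) were lower in HuCC-A1 than in EGI-1. The 1 other tested protein-coding gene wholly inside this stretch, HKR1, was not called in that comparison (log2 fold change -0.24, adjusted p = 0.189, edgeR quasi-likelihood test). HKR1 averaged 36.2 CPM in HuCC-A1, 29.6 CPM in HuCC-T1 and 42.7 CPM in EGI-1. ZNF585A averaged 0.327 ± 0.238 CPM in HuCC-A1, 1.96 ± 0.910 CPM in HuCC-T1 and 7.79 ± 1.52 CPM in EGI-1, with 11.3% of its 100-base stretches found elsewhere, and was chosen, as the first of this run, after its values were seen. ZNF607, near the end, had 0, 0, 0.0267, 0 and 0.0307 CPM in the HuCC-A1 tumors, 0, 3.60, 0.150, 0.0353 and 1.15 CPM in the HuCC-T1 tumors and 13.5, 11.8, 16.1, 13.1 and 10.9 CPM in the EGI-1 tumors. The 2 counts in HuCC-A1 gave a ratio of EGI-1 to HuCC-A1 of 985 (exact 95% interval 273 to 8129), and in HuCC-T1 the counts came mostly from replicates 2 and 5, with a log2 fold change against EGI-1 of -3.72, or of -5.24 without replicate 2. The zinc finger gene ZFP30, near ZNF607 and outside the run of 6, lacks the ZNF symbol and was chosen after its values were seen. It averaged 0.0572, 0.00692 and 22.6 CPM in HuCC-A1, HuCC-T1 and EGI-1.

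Cluster 9 (chr19:55476332-56671783, 16 members, 13 tested) had no member called higher than in EGI-1 in either comparison. Lower calls numbered 8 in HuCC-A1 (61.5%, against 26.0% of all genes) and 10 in HuCC-T1 (76.9%, against 25.0%). Among the lower calls of both comparisons were ZNF582, ZNF583, ZNF470 and ZNF71, which averaged at least 1 CPM only in EGI-1. These shares depend on the filter, since a member that passes it only through EGI-1 can only come out lower. At its far end, the 7 neighbours from ZNF582 to ZNF835 (chr19:56375846-56671783) were all silent in HuCC-T1, with 17 counts in all, and 5 neighbours from ZNF667 to ZNF835 were silent in HuCC-A1, with 26 counts. In EGI-1, 4 of the 7 were not silent, namely ZNF582, ZNF583, ZNF470 and ZNF71, and ZNF667, ZNF471 and ZNF835 were silent there too.

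ZNF71 had 0, 0, 0, 0 and 0.0307 CPM in the HuCC-A1 tumors and no count in the HuCC-T1 tumors, against 3.33, 5.90, 4.17, 3.81 and 2.46 CPM in the EGI-1 tumors. It was at least 191-fold lower in HuCC-T1 than in EGI-1, and the single count in HuCC-A1 gave a ratio of EGI-1 to HuCC-A1 of 582 (exact 95% interval 105 to 23005). ZNF582, a methylation marker of cervical and oral carcinomas, had no count in the HuCC-A1 tumors and 0, 0.0692, 0, 0 and 0 CPM in the HuCC-T1 tumors, against 0.763, 1.42, 1.5, 1.25 and 0.922 CPM in the EGI-1 tumors. Its level in EGI-1 was itself close to 1 CPM, and it was at least 58.9-fold lower in HuCC-A1.

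ZNF470 had 3 counts in HuCC-A1 and 1 in HuCC-T1, against 441 in EGI-1, where replicate 4 had 4.37 CPM and the other tumors 1.75 to 2.17 CPM. ZNF583, next to ZNF582, averaged 0.151 ± 0.164 CPM in HuCC-A1, 0.0192 ± 0.0429 CPM in HuCC-T1 and 3.23 ± 0.714 CPM in EGI-1 (SD, n = 5 each), and its call between HuCC-A1 and HuCC-T1 (adjusted p = 0.0291, edgeR quasi-likelihood test) was lost without HuCC-A1 replicate 1 (adjusted p = 0.146) and without HuCC-T1 replicate 2, 3, 4 or 5 (adjusted p of 0.0622 to 0.0640). ZNF444, which lies next to ZNF582 on the other side and binds regulatory elements of a scavenger receptor gene, averaged 48.6 CPM in HuCC-A1, 25.2 CPM in HuCC-T1 and 45.7 CPM in EGI-1. It was lower in HuCC-T1 than in EGI-1, by 0.86 on the log2 scale (adjusted p = 0.00144, edgeR quasi-likelihood test), and not called in HuCC-A1 against EGI-1.

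**Figure D4:**
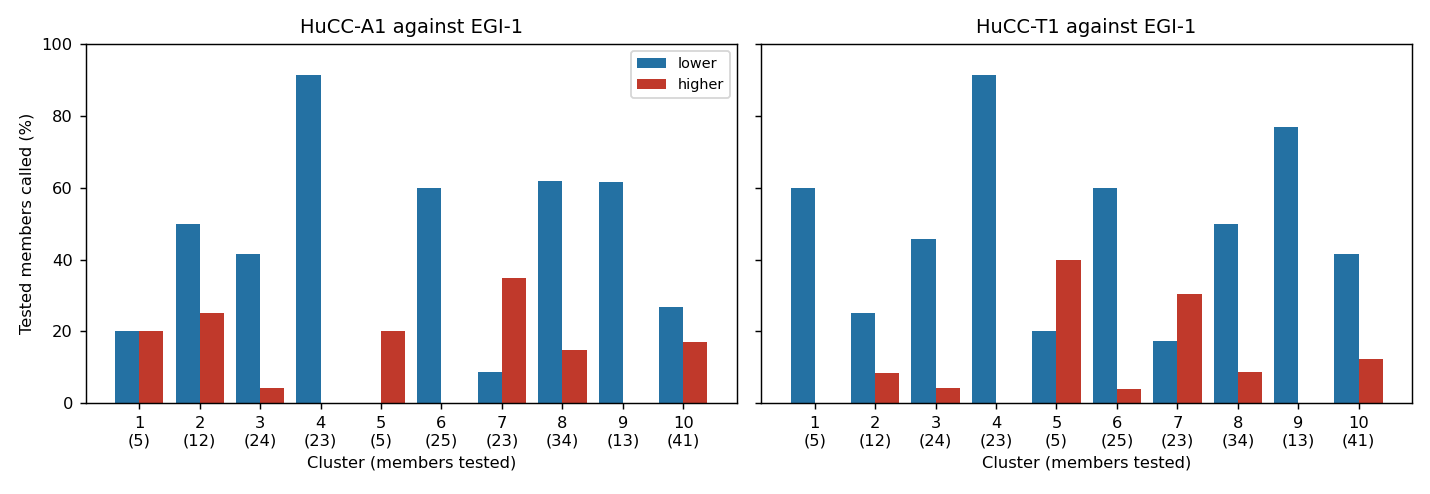
Share of the tested members of each cluster called lower (blue) or higher (red) at an adjusted p of 0.05 in HuCC-A1 against EGI-1 (left) and HuCC-T1 against EGI-1 (right), with the number of tested members under each cluster number. In cluster 4, 21 of 23 members were lower in each panel, and in cluster 7 the higher calls (8 and 7 of 23) outnumber the lower ones (2 and 4).

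Cluster 10, the last of the long arm (chr19:57191500-58481230, 43 members, 41 tested), was mostly active in all models. In HuCC-A1 against EGI-1, 7 were higher (17.1%, against 29.4% of all genes) and 11 lower (26.8%, against 26.0%), so that the share of lower calls was close to that of all genes. The split turned to 11 higher and 4 lower when libraries were scaled by their totals and to 9 higher and 6 lower with upper quartiles. In HuCC-T1 against EGI-1, 5 were higher (12.2%, against 27.3%) and 17 lower (41.5%, against 25.0%). ZNF606 stood apart. It had 15.3, 13.8, 24.2, 16.7 and 17.8 CPM in the HuCC-A1 tumors, 0, 0, 0, 0.106 and 0 CPM in the HuCC-T1 tumors and 8.39, 11.4, 14.2, 10.6 and 14.8 CPM in the EGI-1 tumors. The 3 counts in HuCC-T1 gave ratios of 892 for HuCC-A1 over HuCC-T1 (exact 95% interval 305 to 4326) and of 594 for EGI-1 over HuCC-T1 (203 to 2881), whereas HuCC-A1 and EGI-1 overlapped and did not pass the test (adjusted p = 0.109, edgeR quasi-likelihood test).

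ZNF256, beside ZNF606, had 0.708, 0.05, 0.373, 0.451 and 1.10 CPM in HuCC-A1, no count in any HuCC-T1 tumor, and 0.763, 1.75, 1.5, 1.78 and 1.64 CPM in EGI-1, and was at least 73.4-fold lower in HuCC-T1 than in EGI-1. On either side of this pair, ZNF418 had 15 counts in HuCC-A1, none in HuCC-T1 and 63 in EGI-1, and ZNF135 had no count in any model. ZNF549, in the same cluster, went the other way. It had 4.21, 4.00, 5.49, 5.28 and 5.46 CPM in the HuCC-A1 tumors, 18.7, 18.6, 19.4, 16.9 and 14.3 CPM in the HuCC-T1 tumors and 0.275, 0, 0.184, 0.291 and 0.230 CPM in the EGI-1 tumors. The models did not overlap, with log2 fold changes of 4.61 ± 0.39 for HuCC-A1 and 6.45 ± 0.41 for HuCC-T1 against EGI-1 (SE, adjusted p = 2.8e-08 and 1.46e-09, edgeR quasi-likelihood test).

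Cluster 7 (chr19:43525497-44500524, 23 members, all tested) had more higher than lower calls against EGI-1. In HuCC-A1, 8 members were higher (34.8%, against 29.4% of all genes) and 2 lower (8.70%, against 26.0%), and in HuCC-T1 7 were higher (30.4%, against 27.3%) and 4 lower (17.4%, against 25.0%), with medians of 0.35 and 0.17. The shares of higher calls were thus close to those of all genes. It held ZNF229, the sole member that was silent in EGI-1 and expressed elsewhere, with 0.637, 0.05, 0.213, 0.258 and 0.123 CPM in the HuCC-A1 tumors, 3.81, 3.53, 3.63, 3.21 and 6.60 CPM in the HuCC-T1 tumors and no count in the EGI-1 tumors. It was at least 257-fold higher in HuCC-T1 than in EGI-1 (adjusted p = 4.74e-07, edgeR quasi-likelihood test). ZNF285, in the same cluster, averaged 5.35 ± 1.74 CPM in HuCC-A1, 1.62 ± 0.428 CPM in HuCC-T1 and 0.833 ± 0.316 CPM in EGI-1, and ZNF404 averaged 3.0 ± 0.767, 2.64 ± 1.51 and 1.09 ± 0.430 CPM (SD, n = 5 each). Both passed the test in HuCC-A1 against EGI-1, being higher by 2.69 and 1.46 on the log2 scale (adjusted p = 2.64e-06 and 0.00359, edgeR quasi-likelihood test).

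Clusters 1, 2, 3 and 5 held calls in both directions. Among all genes, 29.4% were higher and 26.0% lower in HuCC-A1 against EGI-1, and 27.3% and 25.0% in HuCC-T1 against EGI-1. In cluster 3 (24 members tested), 1 member was higher (4.17%) and 10 were lower (41.7%) in HuCC-A1, and 1 was higher (4.17%) and 11 lower (45.8%) in HuCC-T1, all against EGI-1. The neighbours ZNF878 and ZNF844 were silent in HuCC-T1. ZNF844 had 0.991, 0.3, 1.33, 1.26 and 0.399 CPM in HuCC-A1, 0.192, 0.0346, 0.0748, 0.106 and 0.0311 CPM in HuCC-T1 and 8.30, 8.59, 12.9, 12.1 and 12.01 CPM in EGI-1. The models did not overlap, with log2 fold changes of -3.63 ± 0.41 and -6.88 ± 0.51 for HuCC-A1 and HuCC-T1 against EGI-1 (SE, adjusted p = 9.31e-07 and 1.03e-08, edgeR quasi-likelihood test). In cluster 2 (12 tested), 3 were higher (25%) and 6 lower (50%) in HuCC-A1, and 1 was higher (8.33%) and 3 lower (25%) in HuCC-T1. In cluster 5 (5 tested), 1 was higher (20%) in HuCC-A1, and 2 were higher (40%) and 1 lower (20%) in HuCC-T1. In cluster 1 (5 tested), 1 was higher (20%) and 1 lower (20%) in HuCC-A1, and 3 were lower (60%) in HuCC-T1. When libraries were scaled by their totals or by upper quartiles, the split of cluster 2 in HuCC-A1 was 3 higher and 3 lower. ZNF556 in cluster 1 had 5 counts in HuCC-T1, all in replicate 1, against 147 in HuCC-A1 and 335 in EGI-1.

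Members were also grouped by what is known of them. Of 9 members known to bind or repress retroelements, 8 were tested. In HuCC-A1 against EGI-1, 1 was higher (12.5%, against 29.4% of all genes) and 5 were lower (62.5%, against 26.0%), with a median log2 fold change of -2.98. In HuCC-T1 against EGI-1, 1 was higher (12.5%, against 27.3%) and 4 were lower (50%, against 25.0%), with a median of -1.66. The medians over all genes were 0.06. ZNF93, ZNF382 and ZNF85 averaged at least 1 CPM only in EGI-1. A member that passes the filter only through EGI-1 can only come out lower, so these shares and medians depend on the filter. The lower ones in HuCC-A1 were ZNF91, ZNF93, ZNF649, ZNF382 and ZNF85, and the higher one was ZNF611. ZNF765 averaged 14.3 CPM in HuCC-A1, 13.7 CPM in HuCC-T1 and 14.1 CPM in EGI-1, ZNF808, which is needed for pancreas development, averaged 10.3, 9.22 and 7.66 CPM, and neither was called in any comparison. ZNF534 was silent in all models.

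Of 16 members whose promoters are known to be methylated in carcinomas, 9 were silent in HuCC-A1, 9 in HuCC-T1 and 4 in EGI-1, and 4, 4 and 6 were expressed, where 36, 48 and 29 of all 249 members were silent. Of the 9 tested, 2 were higher (22.2%, against 29.4% of all genes) and 6 lower (66.7%, against 26.0%) in HuCC-A1 against EGI-1. In HuCC-T1 against EGI-1, 1 was higher (11.1%, against 27.3%) and 5 were lower (55.6%, against 25.0%). The medians were -1.19 and -1.86, against 0.06 over all genes. ZNF549 was higher in both HuCC-A1 and HuCC-T1, and ZNF671 in HuCC-A1, by 1.42 on the log2 scale (adjusted p = 0.0168, edgeR quasi-likelihood test). ZNF671 averaged 2.44, 0.584 and 0.908 CPM in HuCC-A1, HuCC-T1 and EGI-1. ZNF132 was not called in any comparison. The means of ZNF382, ZNF582 and ZNF569 were near or above 1 CPM only in EGI-1. A member that passes the filter only through EGI-1 can only come out lower, so these shares and medians depend on the filter. Of the 6 lower calls in HuCC-A1, that of ZNF154 was lost in 7 fits without 1 tumor (adjusted p of 0.0501 to 0.0733, edgeR quasi-likelihood test) and that of ZNF331 in 3 (0.0502 to 0.0581). ZNF382, a proposed tumor suppressor that stands in both lists, had 0.319, 0, 0.107, 0.676 and 0.307 CPM in HuCC-A1, 0.320, 0.277, 0.374, 0.6 and 0.218 CPM in HuCC-T1 and 2.04, 2.06, 4.81, 4.31 and 3.41 CPM in EGI-1. All EGI-1 tumors were above all others, and the log2 fold changes were -3.51 and -3.21 (adjusted p = 5.93e-05 and 0.000144, edgeR quasi-likelihood test), the HuCC-A1 value being -4.14 without HuCC-A1 replicate 4. ZNF569 averaged 0.025, 0.033 and 0.931 CPM in HuCC-A1, HuCC-T1 and EGI-1. ZNF677, ZNF177, ZNF471 and ZNF667 were silent in all 3 models.

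Of 8 members with other known roles, 7 were tested. In HuCC-A1 against EGI-1, 1 was higher (14.3%, against 29.4% of all genes) and none was lower. The higher one was ZNF274, which recruits SETDB1 to the 3′ ends of ZNF genes. It had 38.1, 43.4, 47.2, 49.2 and 45.9 CPM in the HuCC-A1 tumors, 31.6, 28.1, 34.8, 35.2 and 27.0 CPM in the HuCC-T1 tumors and 24.0, 24.9, 27.9, 23.8 and 20.5 CPM in the EGI-1 tumors. HuCC-A1 lay above both other models, with a log2 fold change of 0.89 ± 0.13 against EGI-1 (SE, adjusted p = 1.88e-05, edgeR quasi-likelihood test). In HuCC-T1 against EGI-1, 3 of the 7 were higher (42.9%, against 27.3% of all genes) and 2 lower (28.6%, against 25.0%). The higher ones were ZNF274, ZNF304 and ZNF146, by 0.37, 0.49 and 0.44 on the log2 scale. Each of these calls was lost in some fits without 1 tumor (adjusted p up to 0.0665, 0.123 and 0.0652, edgeR quasi-likelihood test). ZNF296, whose mouse counterpart binds the pluripotency factor Klf4, averaged 9.51 CPM in HuCC-A1, 1.75 CPM in HuCC-T1 and 6.03 CPM in EGI-1, and ZNF224, a repressor of the aldolase A gene, averaged 25.1, 29.4 and 26.2 CPM and was called in none of the comparisons, with 40.5% of its exon bases shared with an antisense gene.

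Partners and chromatin regulators of KRAB zinc finger proteins, which are not members, were called in both directions at shares that were mostly near or below those of all genes. Of 32 tested, 6 were higher (18.8%, against 29.4% of all genes) and 8 lower (25%, against 26.0%) in HuCC-A1 against EGI-1, and 8 were higher (25%, against 27.3%) and 12 lower (37.5%, against 25.0%) in HuCC-T1 against EGI-1, with medians of -0.00 and -0.04. TRIM28, the corepressor bound by the KRAB domain and itself encoded on chromosome 19, averaged 275 CPM in HuCC-A1 (237 to 290), 230 CPM in HuCC-T1 (168 to 316) and 393 CPM in EGI-1 (308 to 494), and was lower by 0.52 and 0.78 on the log2 scale (adjusted p = 0.0137 and 0.000841, edgeR quasi-likelihood test). UHRF1, which guides maintenance DNA methylation, was lower by 1.14 and 1.05 (adjusted p = 0.00052 and 0.00112), and SETDB1 was not called against EGI-1 in either model. The chromatin remodeller gene ATRX averaged 43.3 CPM in HuCC-A1, 152 CPM in HuCC-T1 and 41.7 CPM in EGI-1, and was higher by 1.87 on the log2 scale in HuCC-T1 than in EGI-1 (adjusted p = 1.51e-07).

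Fitted fold changes of members with only a few counts in a model rested on single tumors. For the named members' calls, fits without 1 tumor each gave 1270 values, and in 54 of them the fold change moved by over 1.5 times. The call was lost in 66 of the 1270 values, which touched 15 of the 127 calls. Among them were those of ZNF878, ZNF256, ZNF154 and ZNF331 in HuCC-A1 against EGI-1. Those of ZNF146, ZNF274 and ZNF304 in HuCC-T1 against EGI-1 and of ZNF829 and ZNF583 between HuCC-A1 and HuCC-T1 were also among them. For 53 members, over 10% of their 100-base stretches occur elsewhere among the annotated exons, and for 12 members over 50% of exon bases are shared with another gene. Counts of such members can hold reads of their relatives.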

How the data were processed

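RNA was measured by bulk RNA-seq in 15 xenograft tumors, 5 per cell line, from total RNA with a directional library kit. The deposited values are raw counts of reads per gene, for which the authors, per the labels, used CASAVA, HISAT2 2.0.5 on GRCh38 and featureCounts 1.5.0-p3. The sources used here do not state the annotation release, the strand setting of the counting, or how multi-mapped reads and reads from the mouse host were handled. All 58735 genes matched GENCODE 29. No sample column was left unused. The members and lists were chosen with earlier results of these data known.

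Genes that passed filterByExpr with the models as groups were tested with edgeR 4.0.16 under R 4.3.3, by a quasi-likelihood fit over all 15 tumors with TMM scaling and Benjamini-Hochberg adjustment over 21019 genes (common biological coefficient of variation 0.338, 12 residual degrees of freedom). Nothing in the labels says that the tumors of a model are independent beyond being separate tumors, so that p-values measure only the spread between them. Silent members and clusters were defined with the limits given in the text. Named members were, per cluster and model, up to 4 silent there and expressed elsewhere, the 5 highest per kb of exon, the 5 highest and 5 lowest non-overlapping fold changes of each comparison among members with at least 1 CPM in either model, and the listed genes, 65 in all. Others are said to have been chosen after their values were seen. A fold against no count used a floor of 3 counts over the group, and against 1 to 3 counts an exact 95% Poisson interval. In simulated data of 20397 genes for HuCC-A1 against EGI-1, 49 of 100 genes changed 2-fold and 92 of 100 changed 4-fold were called, with 2 of 20197 unchanged genes. Alternatives included other scaling, filters, DESeq2 1.42.0, limma 3.58.1 with voom, other limits and leaving out each tumor. Replicates of a model differed by more than counting noise (lowest chi-square per degree of freedom 33.59).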

Additional observations from a re-analysis of the deposited data

Results flagged for a closer look

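In 12 of 136 groups of 5 tumors, 1 tumor lay far from the other 4, where chance gives about 1 in 20 groups. The summed level of cluster 8 was 226 CPM in HuCC-A1 replicate 2, against 313 to 318 CPM in the other HuCC-A1 tumors, and without that tumor HuCC-A1 still lay below every EGI-1 tumor. In HuCC-T1 replicate 1, 2 members of cluster 9 were high: ZNF524 had 33.9 CPM, against 7.95 to 14.3 CPM in the other HuCC-T1 tumors, and ZNF581 had 49.9 CPM, against 16.1 to 22.0 CPM. HuCC-T1 replicate 2 was high for ZNF404 (5.26 CPM, others 1.59 to 2.59 CPM) and for ZNF614 (13.1 CPM, others 6.99 to 8.57 CPM). HuCC-T1 replicate 5 was low for ZNF266 (48.6 CPM, others 64.5 to 70.5 CPM) and high for ZNF229 (6.60 CPM, others 3.21 to 3.81 CPM). ZNF146 was low in HuCC-A1 replicate 4 (84.4 CPM, others 90.5 to 92.5 CPM) and in EGI-1 replicate 1 (55.5 CPM, others 72.3 to 77.0 CPM). ZNF285 was high in HuCC-A1 replicate 3 (8.40 CPM, others 3.99 to 4.99 CPM). ZNF470 was high in EGI-1 replicate 4 (4.37 CPM, others 1.75 to 2.17 CPM), and ZNF256 was low in EGI-1 replicate 1 (0.763 CPM, others 1.5 to 1.78 CPM).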

How the results depend on the processing

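The counts of members called changed most when at least 10 counts were required in each library, which left 154 members to test: 48 were then lower in HuCC-A1 and 59 in HuCC-T1 against EGI-1, and 41 were higher and 21 lower in HuCC-A1 against HuCC-T1. Such a filter removes members that are silent in 1 model. When every tumor had to be below 0.1 CPM, 23 members were silent in HuCC-A1, 31 in HuCC-T1 and 19 in EGI-1, and 10 of those in HuCC-T1 were expressed elsewhere. With levels per kb of exon, 61 members were silent in HuCC-A1, 67 in HuCC-T1 and 37 in EGI-1, and 13, 13 and 2 of these were expressed elsewhere. In a fit of only the 10 tumors compared, 45 of 190 tested members were higher and 36 lower in HuCC-A1 against HuCC-T1. With 0.3 CPM as the silent limit, 19 members in HuCC-A1, 28 in HuCC-T1 and 3 in EGI-1 were silent and expressed elsewhere, and with 0.5 CPM as the expressed limit 2 were so in EGI-1. Leaving out 1 tumor at a time gave 24 to 33 higher and 84 to 93 lower members in HuCC-A1 against EGI-1, 16 to 23 and 97 to 111 in HuCC-T1 against EGI-1, and 61 to 74 and 36 to 46 in HuCC-A1 against HuCC-T1. Of 2297 alternative values of 127 called changes of named members, 2202 kept the call, 95 lost it and 0 were reversed. The replicate numbers do not pair the tumors (2 of 15 correlations of same-numbered tumors were over 0.1). With the replicate number as a block, 30 members were higher and 94 lower in HuCC-A1 against EGI-1, 19 and 110 in HuCC-T1 against EGI-1, and 68 and 40 in HuCC-A1 against HuCC-T1. Depth limits members near the silent level, since 3 counts over a group stand for 0.0201 CPM in HuCC-A1, 0.0204 CPM in HuCC-T1 and 0.0164 CPM in EGI-1.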

Other observations

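The few counts of silent members were not spread evenly over the tumors. Of the 31 members that were silent in HuCC-T1 with at least 1 count there, 13 had their highest level in replicate 1, whose summed level over them was 2.40 CPM, against 0.484 to 1.08 CPM in the other HuCC-T1 tumors. Of the 15 such members in EGI-1, 8 had their highest level in replicate 2, with a sum of 1.06 CPM against 0.102 to 0.408 CPM in the other EGI-1 tumors. Among the 24 in HuCC-A1, no tumor held the highest level of more than 8. This count was made after the data were seen, and what sets these tumors apart was not tested.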
